A study of Rattus norvegicus with 6 samples.

Results

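The mitochondrial carrier family, genes with Slc25a symbols, was examined in 6 mammary tumors of female Sprague-Dawley rats profiled by RNA sequencing. All rats had received N-methyl-N-nitrosourea (MNU), an alkylating mammary carcinogen, injected into the peritoneum at 50 mg/kg when 21 days old. Gavage began 1 week after the injection and was given 5 times a week for 10 weeks. The 3 vehicle tumors came from rats given 100 µL corn oil, and the 3 DATS tumors from rats given 50 mg/kg diallyl trisulfide, a garlic organosulfur compound, in corn oil. Whether each tumor is from a different rat is not stated, so p-values measure only the spread between these tumors. Members were all rows of the deposited table whose symbol starts with Slc25a and a number, which gave 44 of 32545 genes, each on 1 row. Of the 44, 35 averaged at least 1 FPKM over all 6 tumors and entered the tests, 7 were lower, and Slc25a22 and Slc25a31 were listed at 0 in all 6 tumors. FPKM are fragments per kilobase of gene scaled for depth, so that levels of different genes can be set side by side.

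Mitochondrial carriers are small proteins, nearly all of the inner mitochondrial membrane, built from repeats of paired membrane helices around a central substrate site. They alternate between a state open to the cytosol and a state open to the matrix, and so exchange nucleotides, phosphate, carboxylates, amino acids and cofactors across a membrane that is otherwise closed to them. In glandular epithelium they join glycolysis and lipid synthesis in the cytosol to respiration in the matrix: ADP and phosphate enter for ATP synthase, ATP leaves, and citrate leaves for the synthesis of fatty acids.

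The 3 most abundant of the 44 genes are a phosphate carrier and both ADP/ATP carriers expressed in these tumors. A mitoferrin is part of the only ratio below whose groups did not overlap. The 250 bases before the start of these 4 genes, from the RefSeq promoter table of build GRCr8, are shown for that reason. They lie at chr7:27506628-27506877 on the minus strand (Slc25a3), chrX:120897366-120897615 on the plus strand (Slc25a5), chr16:52805271-52805520 on the plus strand (Slc25a4) and chr1:252491343-252491592 on the minus strand (Slc25a28). Capitals mark CCAAT boxes and GC boxes on either strand.
Slc25a3: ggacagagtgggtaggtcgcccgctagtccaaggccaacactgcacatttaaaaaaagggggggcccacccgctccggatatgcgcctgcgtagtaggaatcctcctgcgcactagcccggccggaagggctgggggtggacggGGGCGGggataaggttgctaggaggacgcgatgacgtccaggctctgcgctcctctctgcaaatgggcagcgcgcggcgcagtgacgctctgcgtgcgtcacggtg
Slc25a5: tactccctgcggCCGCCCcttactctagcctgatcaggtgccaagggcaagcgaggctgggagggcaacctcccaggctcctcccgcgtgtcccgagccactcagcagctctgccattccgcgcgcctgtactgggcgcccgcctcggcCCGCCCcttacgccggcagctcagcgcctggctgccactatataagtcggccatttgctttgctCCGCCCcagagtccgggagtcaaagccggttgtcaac
Slc25a4: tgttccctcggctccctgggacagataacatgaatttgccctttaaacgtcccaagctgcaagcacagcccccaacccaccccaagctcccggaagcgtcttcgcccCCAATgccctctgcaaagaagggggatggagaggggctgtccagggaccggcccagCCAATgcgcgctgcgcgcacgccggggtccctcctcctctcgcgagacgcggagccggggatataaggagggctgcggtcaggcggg
Slc25a28: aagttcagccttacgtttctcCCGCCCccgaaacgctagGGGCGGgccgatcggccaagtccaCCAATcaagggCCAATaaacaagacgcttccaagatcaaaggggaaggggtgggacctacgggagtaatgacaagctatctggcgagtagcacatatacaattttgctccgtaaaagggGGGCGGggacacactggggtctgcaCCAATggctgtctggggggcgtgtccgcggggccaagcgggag
The windows of the ADP/ATP carriers were unlike: Slc25a5 held 3 GC boxes and no CCAAT box, and Slc25a4 held 2 CCAAT boxes and no GC box. Slc25a28 held 3 of each. Windows were found for 38 of the 44 members; Slc25a26, Slc25a30, Slc25a32, Slc25a36l1, Slc25a37 and Slc25a46 had none in the table. A CCAAT box (CCAAT) was in 55.3% of the 38 windows and in 34.0% of the 33469 promoters of the table, which include those of noncoding genes. A GC box (GGGCGG) was in 55.3% and 30.5%. The median share of G and C was 57.6% in the 38 windows and 51.2% in all promoters, and its part in the motif shares was not tested. The palindromic motif of the respiratory factor NRF1 was in 0 of the 38 and in 3.75% of all, and CCGGAAGT, for ETS factors, in 5.26% and 3.10%. A TATA box (TATAAA) was in 5.26% and 12.9%, and an E-box (CACGTG) in 7.89% and 5.59%. Both strands were searched and none of the 6 motifs contains another. These are letter matches and not measured binding sites.

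Depth recovered from the steps of the deposited values was 13531587 to 16868678 reads per tumor. The correlation of log2 values over all tested genes was 0.906 to 0.953 between tumors of the same group and 0.904 to 0.941 between tumors of different groups. Vehicle tumor 1 held skeletal muscle RNA: 10 muscle markers summed to 1619 FPKM there, to 21.2 and 43.8 in the other vehicle tumors and to 23.1 to 28.5 in the DATS tumors. Markers of mammary epithelium were present in every tumor. The 9 luminal markers summed to 1997 to 2624 FPKM in vehicle and 2731 to 4328 in DATS tumors, and no marker of that list was at 0 in all tumors.

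Among the 44 genes, those of ATP export and phosphate import were the most abundant. The 44 summed to 1444 ± 80.9 FPKM in vehicle and 1534 ± 86.2 in DATS tumors (SD, n = 3 each). As a share of all FPKM of a tumor this was 0.251%, 0.220% and 0.241% in vehicle and 0.202%, 0.225% and 0.241% in DATS tumors. The FPKM totals over all genes were also higher with DATS, at 662528 to 710096 against 566304 to 656017. Slc25a3, Slc25a5 and Slc25a4 made up 52.8% to 57.9% of the sum of the 44 in each tumor, and the 10 most abundant genes 83.2% to 87.2%. The 5 listed family members under other symbols, Ucp2 above all, are outside it and summed to 701 to 1583 FPKM. In bulk tumors, fewer cells of a type and less RNA per cell cannot be told apart.

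Slc25a3, which imports phosphate for ATP synthase and also brings copper to cytochrome c oxidase, was the most abundant of the 44 and, in the values as deposited, the tested one with the lowest SD over the tumors. It was at 357, 367 and 328 FPKM in vehicle tumors 1, 2 and 3 and at 343, 357 and 361 in DATS tumors 1, 2 and 3. The groups overlapped and the highest tumor was 1.12 times the lowest. Its log2 difference (always DATS minus vehicle, in log2(FPKM + 1)) was 0.01 with a 95% interval of -0.32 to 0.34 (limma adjusted p = 0.992).

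The adenine nucleotide translocases exchange matrix ATP for cytosolic ADP. Slc25a5 (ANT2), the form of proliferating cells, was at 237, 267 and 219 FPKM in vehicle and 249, 249 and 282 in DATS tumors. Slc25a4 (ANT1), the form of muscle and heart, was at 273, 202 and 172 against 226, 252 and 226 FPKM. Both groups overlapped for either gene, and Slc25a4 was highest in vehicle tumor 1, the tumor with muscle markers; the part of muscle in that value was not tested. Without that tumor the log2 difference of Slc25a4 was 0.33 against 0.15 with it, and without vehicle tumor 3 it was -0.0024. The ratio of Slc25a5 to Slc25a4 within a tumor was 0.868, 1.32 and 1.27 in vehicle and 1.10, 0.989 and 1.25 in DATS tumors, so that both forms were present at like levels in every tumor. Slc25a31 (ANT4), the form of germ cells, was listed at 0. Slc25a5 had 9 pseudogene copies in the RefSeq gene table, Slc25a39 had 8, Slc25a3 had 2 and Slc25a4 had 1, and reads shared with such copies could not be separated here.

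**Figure D1:**
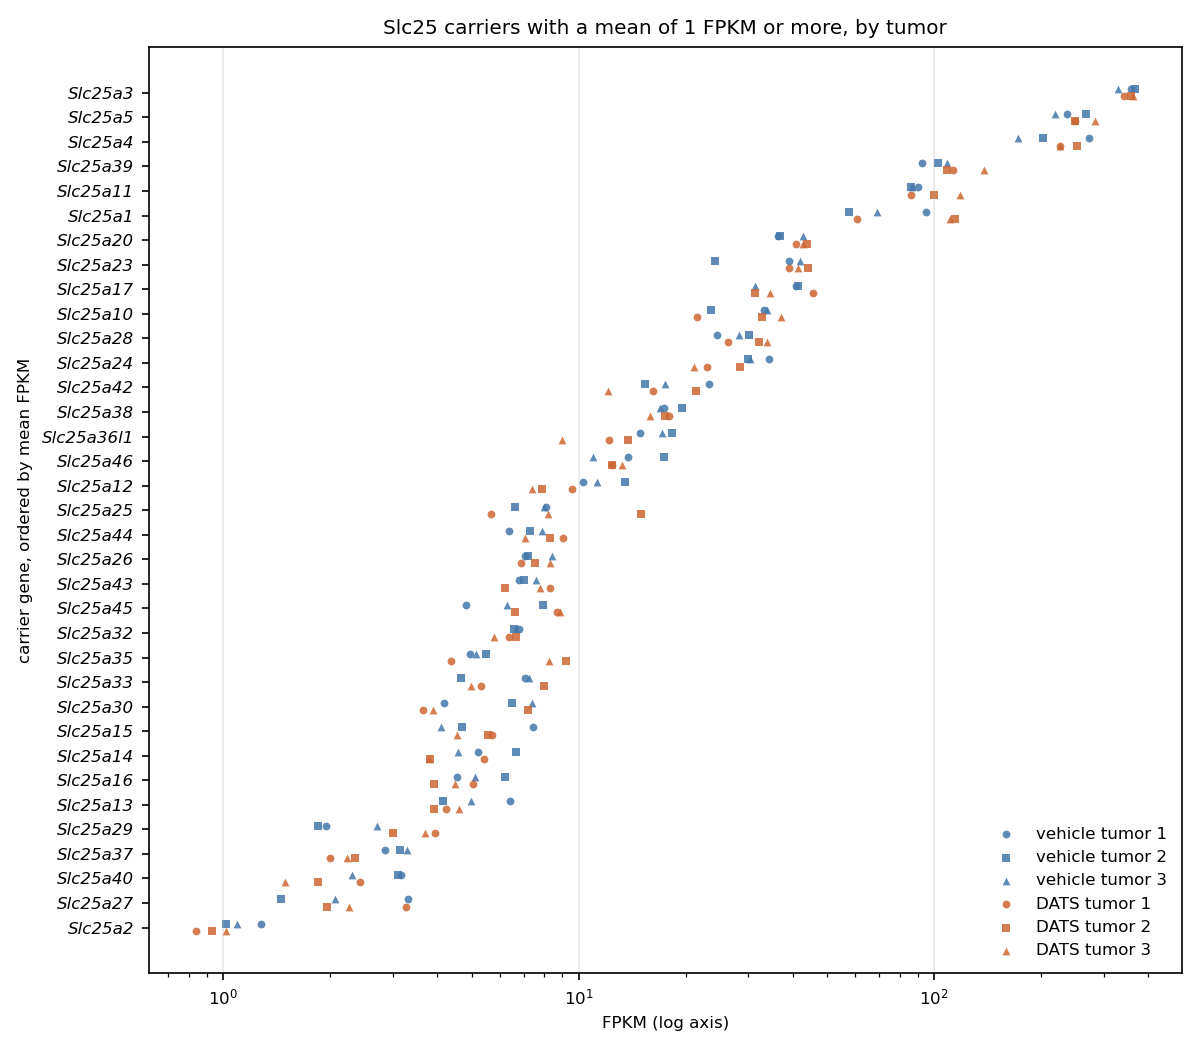
FPKM on a log axis of the 35 Slc25 carriers with a mean of 1 FPKM or more, ordered by mean; each point is 1 tumor (blue vehicle, orange DATS, marker shape for tumors 1, 2 and 3). Means run from 352 FPKM for Slc25a3 to 1.03 for Slc25a2, and the tumors of both groups overlap for 30 of the 35 genes.

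The carriers fell into a few levels. Only Slc25a3, Slc25a5, Slc25a4 and Slc25a39 had means over 100 FPKM, 12 members lay between 10 and 100, and 19 between 1 and 10. Slc25a3 was above the other 43 genes in every tumor. The next neighbours, Slc25a5 with a mean of 250.4 and Slc25a4 with 225 FPKM, exchanged order between tumors, as did Slc25a39 (111), Slc25a11 (94.4) and Slc25a1 (84.4), and the values of Slc25a20, Slc25a23, Slc25a17 and Slc25a10, with means of 30.3 to 40.6, overlapped as well. By substrate, ADP/ATP exchange held 28.7% to 33.4% of the family's FPKM over the 6 tumors, phosphate 22.6% to 25.4%, and di- and tricarboxylates 11.6% to 16.7%. Glutathione carriers held 6.26% to 8.75%, ATP-Mg/phosphate carriers 4.20% to 5.88%, cofactor carriers 4.08% to 5.58%, amino acid carriers 2.77% to 3.61% and iron carriers 1.79% to 2.31%.

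**Figure D2:**
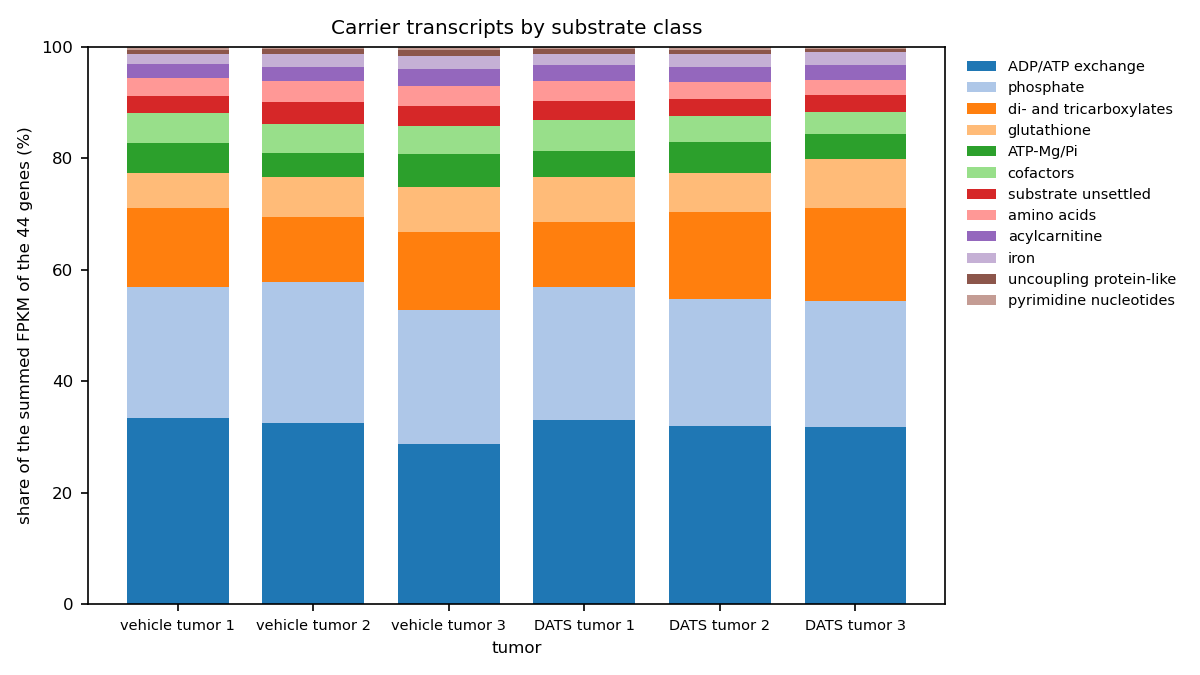
Share of the summed FPKM of the 44 genes by substrate class, in percent, with 1 bar for each tumor. ADP/ATP exchange and phosphate together are the lower and larger part of every bar, at 52.8% to 57.9% in sum.

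DATS was compared with vehicle to find which carriers differ in tumors of treated animals. No carrier was called at a limma adjusted p under 0.05, and none of the 13631 genes tested was, which is 0.0% of them. The median log2 difference of the 35 carriers was -0.00070, with 17 higher (48.6%) and 18 lower in DATS tumors, beside a median of -0.0048 and 49.2% higher over all genes tested. At an unadjusted limma p under 0.05 there were 4 carriers, 11.4% of 35, where all genes gave 5.85%. Of these, Slc25a29 was higher in DATS tumors, 2.86% of 35 against 3.74% of all genes. Slc25a36l1, Slc25a12 and Slc25a24 were lower, 8.57% against 2.11%. The groups did not overlap for those 4 and for Slc25a37, 5 carriers or 14.3%, where all genes gave 12.2%. The 1 higher carrier is 2.86% against 6.72% of all genes, and the 4 lower ones 11.4% against 5.5%. Voom on the recovered reads also called 0 carriers, with Slc25a29 and Slc25a24 at an unadjusted p under 0.05. Scaling each tumor to an equal FPKM total shifted the median over all genes by -0.16; at that p there were then 0 carriers higher and 5 lower, and 128 and 905 of all genes in place of 510 and 287. These were Slc25a12, Slc25a36l1, Slc25a24, Slc25a37 and Slc25a40. Without vehicle tumor 2, or without DATS tumor 3, 0 carriers were at an unadjusted p under 0.05. It was 1 without vehicle tumor 3 and 2 without vehicle tumor 1 or DATS tumor 2. Without DATS tumor 1 it was 3, with Slc25a35 and Slc25a1 higher and Slc25a12 lower, where all genes gave 807 higher and 414 lower. The carriers at that p thus changed with the tumor left out. The median half-width of the 95% interval was 0.47 for the carriers, and 31 of the 35 intervals included 0.

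**Figure D3:**
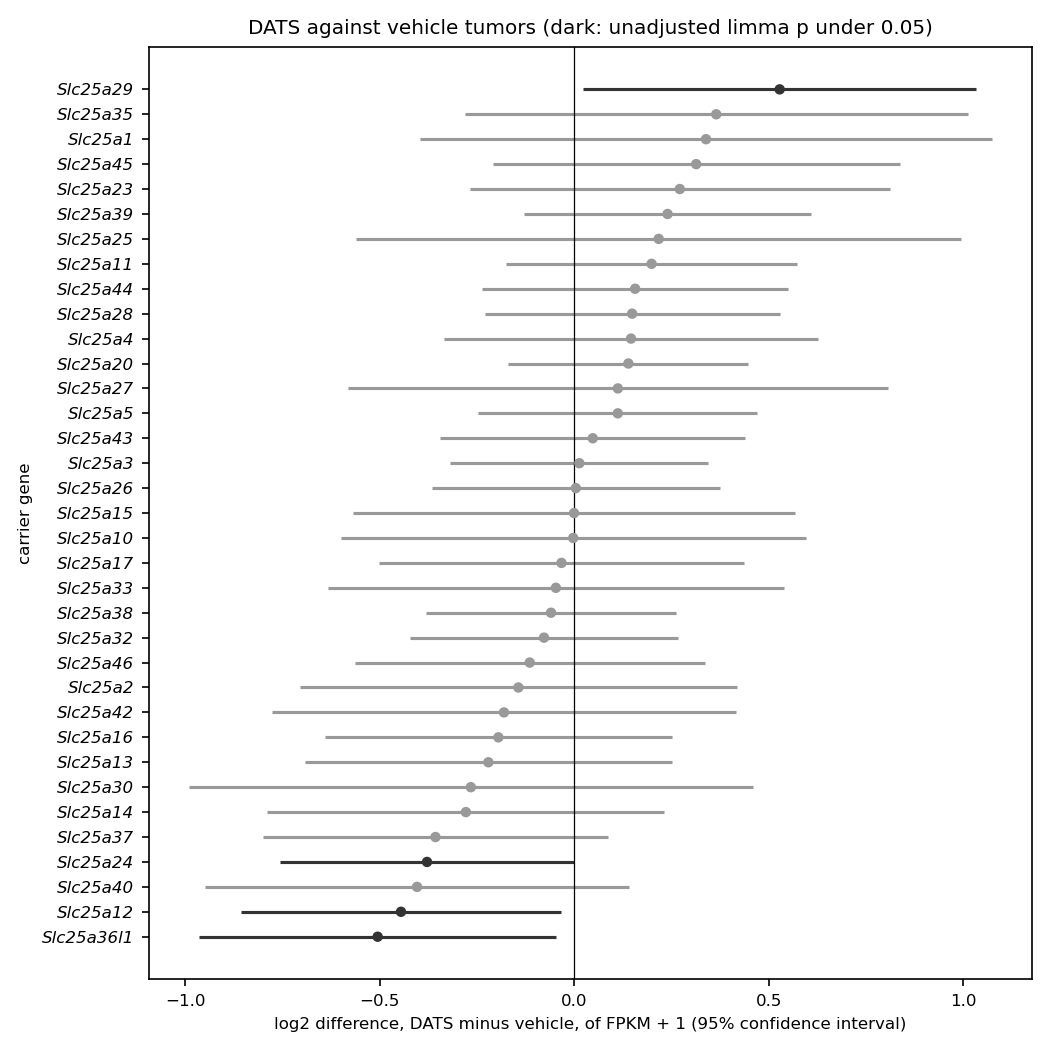
Log2 difference, DATS minus vehicle, of log2(FPKM + 1) for the 35 tested carriers with its 95% confidence interval from limma. The intervals of Slc25a29, Slc25a24, Slc25a12 and Slc25a36l1, drawn dark, leave out 0, and the differences run from -0.51 to 0.53.

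Among carriers of amino acids, none of the 7 tested was called; Slc25a29 and Slc25a44 lay higher with DATS and the other 5 lower. Slc25a12 (aralar) and Slc25a13 (citrin) bring glutamate into the matrix in exchange for aspartate, a step of the malate-aspartate shuttle that moves reducing equivalents. Slc25a12 was at 10.3, 13.5 and 11.3 FPKM in vehicle and 9.59, 7.90 and 7.41 in DATS tumors. All DATS tumors lay below all vehicle tumors, with a log2 difference of -0.45 ± 0.17 (SE; limma adjusted p = 0.819). Slc25a13 was at 6.41, 4.15 and 5.00 against 4.24, 3.93 and 4.60 FPKM and overlapped. Slc25a29, a carrier of basic amino acids in human cells, was at 1.94, 1.85 and 2.71 FPKM in vehicle and 3.95, 3.01 and 3.71 in DATS tumors. Its log2 difference was 0.53 ± 0.21 (limma adjusted p = 0.819), with no overlap and 82 to 166 reads per tumor. Slc25a44, which carries branched-chain amino acids in mouse brown fat, had a log2 difference of 0.16 with overlapping groups. The ornithine carriers Slc25a15 and Slc25a2 of the urea cycle had means of 5.34 and 1.03 FPKM, and Slc25a38, which carries glycine for heme synthesis, one of 17.5 and a log2 difference of -0.06. The glutamate carriers Slc25a22 and Slc25a18 were listed at 0 and at 0 to 8 reads, so that in this table the glutamate exchange genes with appreciable values were Slc25a12 and Slc25a13.

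The ATP-Mg/phosphate carriers, which calcium activates from the cytosolic side and which set the adenine nucleotide pool of the matrix, had 3 tested members, none of them called. Slc25a24 (SCaMC-1) was at 34.2, 29.9 and 30.3 FPKM in vehicle and 22.9, 28.4 and 21.0 in DATS tumors. The groups did not overlap, and the log2 difference was -0.38 ± 0.16 (limma adjusted p = 0.819). Slc25a23 (SCaMC-3) was at 39.1, 24.2 and 41.9 against 39.0, 44.02 and 41.3 FPKM. Vehicle tumor 2 alone was low, and without it the log2 difference was 0.03 in place of 0.27. That tumor also had the lowest luminal markers (1997 FPKM summed) and the highest T cell markers (314 FPKM over 4 genes, against 57.6 to 176 elsewhere); their part in the Slc25a23 value was not tested. Slc25a25 (SCaMC-2) was at 8.11, 6.62 and 7.98 against 5.68, 14.9 and 8.19 FPKM. DATS tumor 2 was high, and without it the log2 difference was -0.12 in place of 0.22. The immediate early gene Fos, taken up after its values were seen, was at 103 FPKM in that tumor and at 32.1 to 53.9 elsewhere; its relation to Slc25a25 was not tested. Slc25a41 had at most 2 reads in a tumor.

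The carriers of di- and tricarboxylates were led by Slc25a11, the 2-oxoglutarate/malate carrier of the malate-aspartate shuttle, at 89.8, 86.1 and 86.4 FPKM in vehicle and 86.0, 99.6 and 118 in DATS tumors. Slc25a1, which exports citrate for fatty acid synthesis, was at 94.6, 57.4 and 69.0 against 60.5, 114 and 111 FPKM with an SD of 0.44 over the 6 log2 values. DATS tumor 1 was near the lowest vehicle tumors, and the log2 difference was 0.34 ± 0.31 (limma adjusted p = 0.868), 0.63 without DATS tumor 1 and 0.18 without vehicle tumor 2. Slc25a10, the dicarboxylate carrier, was at 33.1, 23.6 and 33.8 against 21.5, 32.9 and 37.1 FPKM, low in the same 2 tumors as Slc25a1. Slc25a21 had at most 4 reads in a tumor. Slc25a20, which brings acylcarnitines in for beta oxidation, was at 36.4, 36.7 and 42.7 against 41.0, 43.8 and 42.8 FPKM, and its highest tumor was 1.20 times its lowest.

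Mitoferrins bring iron in for heme and iron-sulfur clusters. Slc25a37 (mitoferrin 1), the form of red cell precursors, was at 2.85, 3.14 and 3.29 FPKM in vehicle and 1.998, 2.35 and 2.24 in DATS tumors, all DATS tumors below all vehicle tumors, on 44 to 79 reads (log2 difference -0.36 ± 0.18, limma adjusted p = 0.819). Slc25a28 (mitoferrin 2), the widely expressed form, was at 24.5, 30.2 and 28.2 against 26.3, 32.2 and 33.9 FPKM and overlapped. The ratio of Slc25a28 to Slc25a37, in which any scaling between tumors cancels, was 8.60, 9.61 and 8.57 in vehicle and 13.1, 13.7 and 15.2 in DATS tumors. The groups stood apart by more than their spread, with 8.93 ± 0.590 against 14.001 ± 1.05 (SD, n = 3) and a log2 difference of 0.65 (exact permutation p = 0.1, the smallest that 3 against 3 tumors can give; adjusted p = 0.533 over 8 ratios). Leaving out each tumor in turn gave 0.59 to 0.70. Of the 8 ratios it was the only one without overlap, beside 12.2% of all genes tested. Slc25a37 did not overlap by itself, so the separation of the ratio is not independent of that gene's. Red cell markers did not separate the groups: 6 rows summed to 194 to 1302 FPKM in vehicle and 374 to 1337 in DATS tumors, and all 5 tested had a log2 difference above 0. Their part in the ratio was not tested.

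Slc25a39 and Slc25a40 bring glutathione into the matrix, as shown in human cells. Slc25a39 was at 92.2, 102 and 109 FPKM in vehicle and 113, 109 and 138 in DATS tumors, and Slc25a40 at 3.17, 3.10 and 2.30 against 2.42, 1.85 and 1.49 FPKM. The log2 differences were 0.24 and -0.40, and either gene overlapped by 1 tumor of a group. Their ratio was 29.1, 33.0 and 47.3 in vehicle and 46.6, 58.9 and 92.5 in DATS tumors, overlapping between vehicle tumor 3 and DATS tumor 1 (log2 difference 0.83, exact permutation p = 0.2, adjusted p = 0.533 over 8 ratios).

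The other 5 ratios overlapped between the groups, with exact permutation p-values of 0.3 to 0.9. These were Slc25a13 to Slc25a12 (log2 difference 0.23), Slc25a10 to Slc25a11 (-0.20), Slc25a5 to Slc25a3 (0.10), Slc25a1 to Slc25a20 (0.20) and Slc25a5 to Slc25a4 (-0.03). Leaving out each tumor in turn gave 0.061 to 0.47 for Slc25a1 to Slc25a20, -0.36 to -0.084 for Slc25a10 to Slc25a11 and 0.054 to 0.14 for Slc25a5 to Slc25a3. The ratio of Slc25a24 to Slc25a25 was 4.22, 4.52 and 3.80 in vehicle and 4.04, 1.90 and 2.57 in DATS tumors (log2 difference -0.63, exact permutation p = 0.2). DATS tumor 1 lay among the vehicle tumors there, and without DATS tumor 2 the difference was -0.37.

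**Figure D4:**
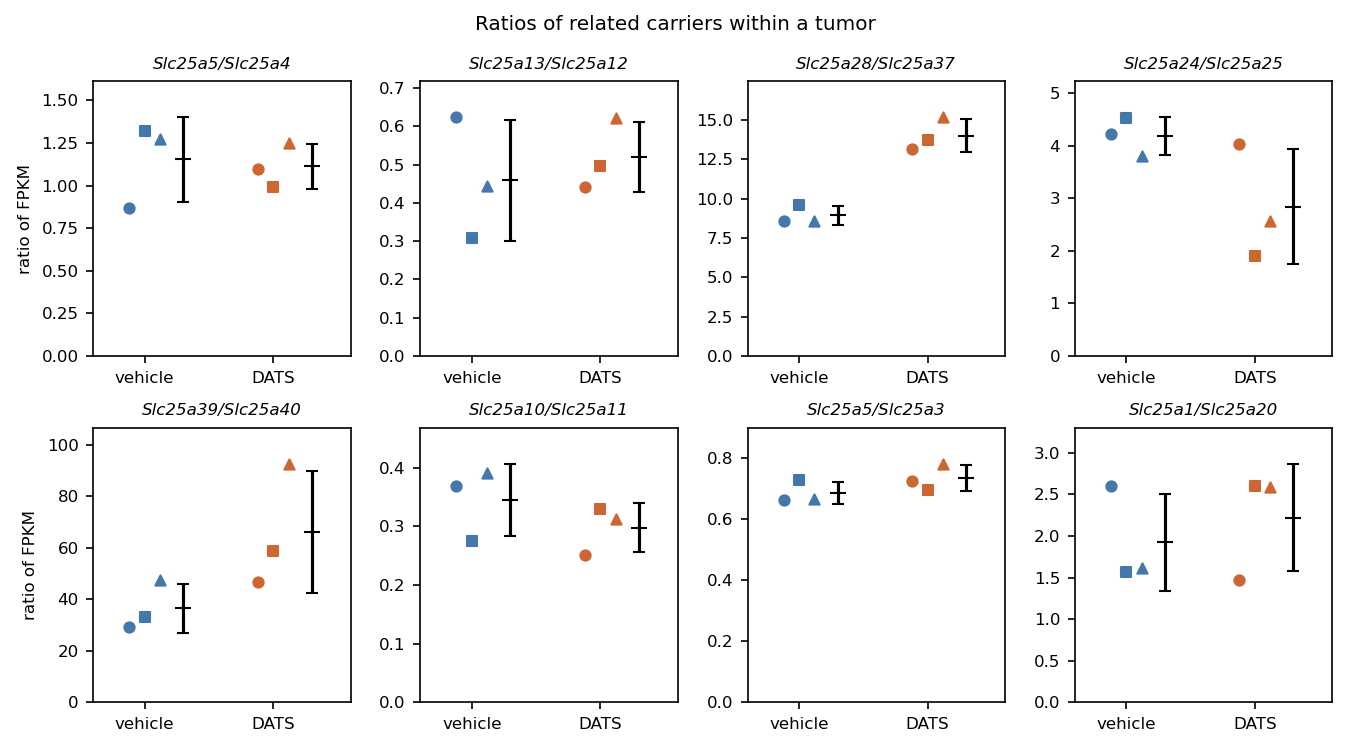
Ratio of FPKM of 8 pairs of related carriers within a tumor (linear axis from 0; points are tumors, bars the mean and SD of 3). Slc25a28/Slc25a37 is the only pair whose groups do not overlap, at 8.57 to 9.61 in vehicle and 13.1 to 15.2 in DATS tumors.

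Carriers of cofactors had 1 member higher and 4 lower in DATS tumors and overlapped throughout. Slc25a17, a carrier of the peroxisome membrane for coenzyme A and related nucleotides, was at 40.7, 41.4 and 31.4 against 45.6, 31.4 and 34.4 FPKM. Slc25a42, which carries coenzyme A in human cells, had means of 18.7 ± 4.04 and 16.5 ± 4.63 (SD, n = 3). Slc25a32, for folate or FAD, Slc25a26, for S-adenosylmethionine, and Slc25a16, linked to coenzyme A, had means of 6.48, 7.57 and 4.89 FPKM and log2 differences of -0.08, 0.0040 and -0.20. Slc25a33, which carries pyrimidine nucleotides, had 6.32 ± 1.44 in vehicle and 6.10 ± 1.64 in DATS tumors.

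Relatives of the uncoupling proteins were low: Slc25a14, Slc25a27 and Slc25a30 had means of 4.91, 2.39 and 5.47 FPKM. Slc25a30 was at 4.18, 6.49 and 7.38 FPKM in vehicle and 3.64, 7.22 and 3.90 in DATS tumors, with no order by group. Of members whose substrate is unsettled or is not assigned here, Slc25a36l1 was at 14.9, 18.3 and 17.1 FPKM in vehicle and 12.1, 13.8 and 8.99 in DATS tumors. Its groups did not overlap, and its log2 difference was -0.51 ± 0.19 (limma adjusted p = 0.819). No gene was listed under the symbol Slc25a36, so reads shared between the 2 genes could not be examined. Slc25a35 was at 4.96, 5.49 and 5.15 against 4.36, 9.22 and 8.27 FPKM, with DATS tumor 1 the lowest of all and the other DATS tumors the highest. Slc25a46, an outer membrane protein of mitochondrial shape, Slc25a43 and Slc25a45 had log2 differences of -0.11, 0.05 and 0.31 with overlapping groups. Below the threshold of 1 FPKM, Slc25a34 had 5 to 35 reads, and Slc25a18, Slc25a21, Slc25a41, Slc25a47, Slc25a48 and Slc25a54 had 0 in at least 1 tumor and at most 12 in any.

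**Figure D5:**
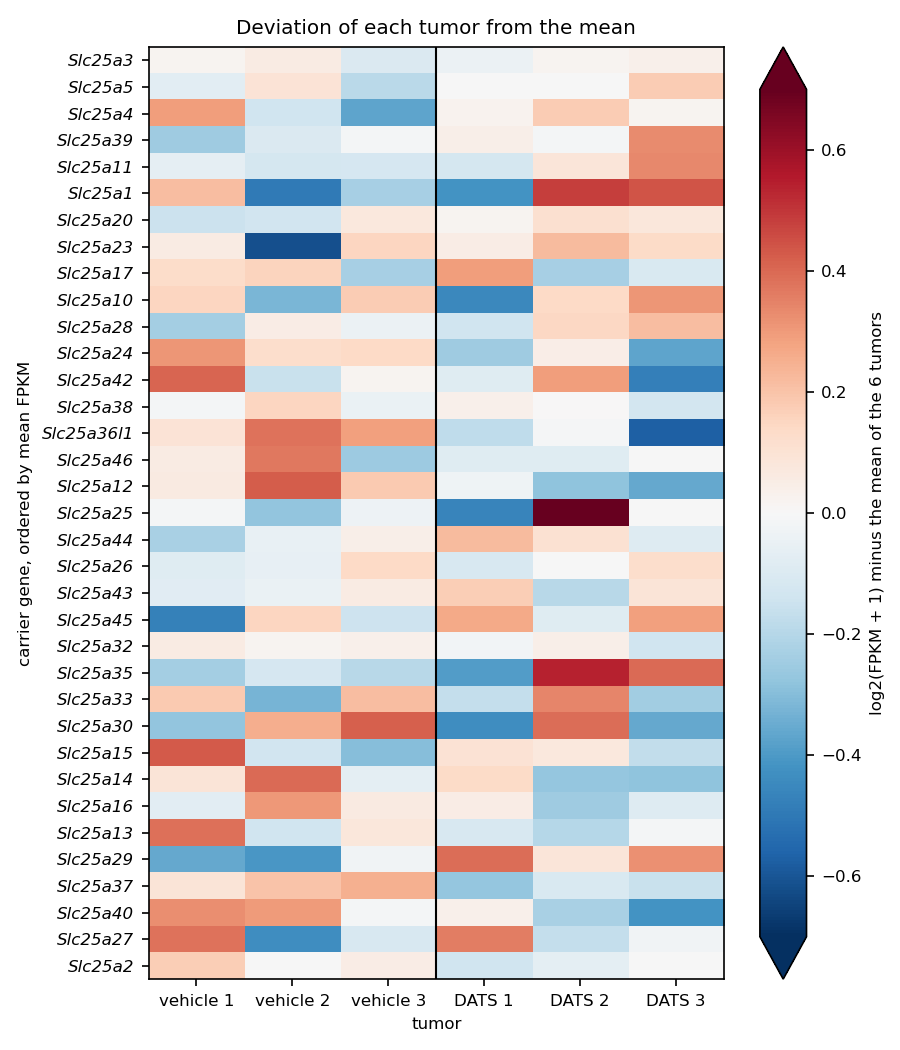
Log2(FPKM + 1) of each tested carrier minus its mean over the 6 tumors (color scale from -0.7 to 0.7, values beyond it in the end color); columns are tumors, with vehicle left of the line. Slc25a25 stands out in DATS tumor 2 and Slc25a23 in vehicle tumor 2, and Slc25a3 is near 0 in each tumor.

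By the median carrier, no tumor was far high or low for the family as a whole. The median deviation of the 35 carriers from their own means lay between -0.05 in vehicle tumor 2 and 0.06 in vehicle tumor 1 on the log2 scale. Vehicle tumor 1 was the highest tumor for 9 of the 35 carriers, where it was for 16.4% of all genes tested. Vehicle tumor 3 was the highest for 3 carriers and for 14.3% of all genes. DATS tumors 1 and 3 were the lowest for 8 carriers each, and for 16.8% and 17.8% of all genes. The SD over the 6 log2 values had a median of 0.23 for the carriers and 0.30 over all genes tested.

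Genes that work beside the carriers were taken from lists of symbols, and none of their members was called. Their log2 differences are on values as deposited. They are not given with equal totals or with a trend over gene length removed, and the part of gene length was not tested. The ATP synthase subunits, which use the phosphate and ADP that carriers bring in, were higher in DATS tumors on 14 of 16 rows, with a median log2 difference of 0.29. Epithelial and fat cell markers lay the same way: 9 of 9 luminal markers (median 0.46), 7 of 7 myoepithelial markers (median 0.68) and 4 of 4 tested adipocyte markers (median 0.75) were higher. Myoepithelial markers summed to 943 to 1851 FPKM in vehicle and 1113 to 2528 in DATS tumors, and adipocyte markers to 60.3 to 135 and 73.6 to 218. Red cell markers were also all higher, skeletal muscle markers all lower, and the remaining lists mixed. Skeletal muscle markers were higher for 0 of 10 (median -1.95). Their sum was 1619 FPKM in vehicle tumor 1 and 21.2 to 43.8 in the other tumors. Fibroblast markers were higher for 2 of 7 (median -0.18). For macrophage markers it was 2 of 6 (median -0.25) and for endothelial ones 2 of 4 (median -0.01). T cell (3 of 4), B cell (2 of 3) and red cell markers (5 of 5) had medians of 0.13, 0.11 and 0.49. The part of these cell types in the ATP synthase values was not tested. Atp5g2, of the membrane ring, was at 513, 497 and 438 FPKM in vehicle and 558, 695 and 708 in DATS tumors and did not overlap (log2 difference 0.43, limma adjusted p = 0.819). Atp5e and Atp5d, of the central stalk, had log2 differences of 0.52 and 0.44 with overlapping groups. The carriers of the same substrates had smaller ones, 0.01 for Slc25a3, 0.11 for Slc25a5 and 0.15 for Slc25a4; whether the lists differ was not tested. With equal totals the values of Slc25a3, Slc25a5 and Slc25a4 were -0.17, -0.07 and -0.03, where the median of all genes was -0.16. With quantile normalization those of Slc25a3 and Slc25a5 were -0.15 and -0.07. With the trend over gene length removed, Slc25a3, Slc25a5 and Slc25a4 were at -0.05, 0.02 and 0.07. ATP synthase values are not given under these settings, so only values as deposited can be set side by side.

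Factors that insert carriers into the inner membrane were higher on 7 of 9 tested rows, with a median of 0.10. Timm10, a small chaperone between the membranes that hands carriers to the insertion complex, was at 15.2, 15.98 and 11.0 FPKM in vehicle and 18.8, 23.9 and 19.1 in DATS tumors without overlap (log2 difference 0.53, limma adjusted p = 0.819). Timm13 and Timm8a1, of the same chaperone family, had log2 differences of 0.74 and 0.50 with overlapping groups, and Timm22, the channel of that complex, one of 0.08. Other mitochondrial transport genes were higher for 14 of 24 (median 0.04). Mpc2, of the pyruvate carrier, was at 135, 125 and 122 against 144, 165 and 175 FPKM without overlap (log2 difference 0.34, limma adjusted p = 0.819), and Smdt1 of the calcium uniporter and Sfxn3, a sideroflexin, had log2 differences of 0.57 and 0.32. Enzymes of the carried substrates were higher for 14 of 24 (median 0.06). Bckdha, of branched-chain keto acid breakdown, was at 43.8, 34.9 and 44.1 against 80.9, 64.0 and 60.1 FPKM, a log2 difference of 0.72 ± 0.17 (limma adjusted p = 0.819). Glud1, glutamate dehydrogenase, did not overlap in the other direction, with 61.9 ± 12.3 against 49.4 ± 3.55 FPKM (SD, n = 3), and Acly, ATP citrate lyase, had a log2 difference of 0.27. Regulators of mitochondrial biogenesis were higher for 5 of 9 with a median of 0.00040; Tfam, which packages mitochondrial DNA, did not overlap at a log2 difference of 0.30, Esrra had one of 0.40 and Twnk, listed as Peo1, of 0.23.

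Of 5 listed family members that carry other symbols, 2 of the 4 tested were higher with DATS, and 1 exceeded all 44. Ucp2, an uncoupling protein known to export carboxylates from the matrix, was at 1375, 495 and 691 FPKM in vehicle and 660.2, 844 and 800.1 in DATS tumors, above Slc25a3 in every tumor. Vehicle tumor 1, the tumor with muscle markers, was high and the groups overlapped (log2 difference -0.03, 95% interval -0.95 to 0.89). Mtch1, an outer membrane relative, was at 143, 154 and 185 against 185, 208 and 214 FPKM (log2 difference 0.34, overlapping by vehicle tumor 3). Ucp3, the muscle form, ranged from 0.295 to 3.41 FPKM, and Ucp1, the uncoupling protein of brown fat, was above 0 in 1 tumor only, at 0.0577 FPKM. Mtch2 had means of 50.2 and 49.2 FPKM. Mcart1, a carrier outside that list, was on 2 rows, with means of 1.69 in vehicle and 1.40 in DATS tumors on the higher row. Its lower row had means of 0.0562 and 0.447 FPKM.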

How the data were processed

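RNA of 6 rat mammary tumors, 3 vehicle and 3 DATS, was made into Illumina libraries with standard methods, according to the labels' protocols. The authors deposited 1 FPKM value per gene and tumor, per the file headers. How reads were aligned and counted, with which build and annotation, is not given in the sources used here. Each gene's FPKM step in units that 1 read is worth, so whole reads, within a relative tolerance of 1e-06, were recovered for 100.0% of the 20891 genes above 0. A read count whose common divisor went unseen is too low, so totals are close lower estimates.

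The 13631 genes that averaged at least 1 FPKM were tested on log2(FPKM + 1), which understates changes of low genes, with limma 3.58.1 in R 4.3.3 (two-sided, trended variance, no term but group, Benjamini-Hochberg adjustment over all genes tested, call at 0.05). Ratios were compared by exact permutation. Of 10 planned, 8 had both genes listed and at 0.1 FPKM or more in every tumor. The recovery and the fit were tested on simulated data. Tables came from pandas 2.3.3 and numpy 2.4.6 under Python 3.11.15, and plots from matplotlib 3.10.9. Full values are given for the 10 carriers of highest mean, those at an unadjusted p under 0.05, the 4 of highest SD and those in ratios, and for list genes of lowest p. The members and lists were chosen with earlier results of these data known. Listed symbols not found directly were matched through RefSeq synonyms (GRCr8). Alternatives were a pseudocount of 0.1, no filter, equal totals, quantile normalization, voom on recovered reads, removal of the length trend, a replicate block and leaving out each tumor.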

Additional observations from a re-analysis of the deposited data

How the results depend on the processing

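No carrier and no gene was called by limma under any of the 13 alternatives to the fit across genes. With equal totals the median log2 difference of the carriers was -0.17, where that of all genes was -0.16, and Slc25a3 (-0.17), Slc25a5 (-0.066), Slc25a4 (-0.032), Slc25a20 (-0.036) and Slc25a28 (-0.024) changed sign. Relative to the median of all genes these were -0.0045, 0.09, 0.13, 0.13 and 0.14. With quantile normalization Slc25a3 (-0.15) and Slc25a5 (-0.069) changed sign, and with the length trend removed the median was -0.051 and Slc25a3 was at -0.051. Without each tumor in turn the median ran from -0.036 to 0.027. Ranges that crossed 0 were -0.034 to 0.046 for Slc25a3, -0.0024 to 0.33 for Slc25a4, -0.16 to 0.22 for Slc25a10, -0.19 to 0.076 for Slc25a17 and -0.12 to 0.50 for Slc25a25, and for the ratios -0.23 to 0.075 for Slc25a5 to Slc25a4 and -0.030 to 0.48 for Slc25a13 to Slc25a12. The causes were not tested.

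Carriers at an unadjusted p under 0.05 numbered 4, against 2 with voom and 0 with the replicate block (all genes 797, 704 and 594), and 0 to 3 without 1 tumor. Correlations of deviations were 0.15, -0.02 and -0.12 between same-numbered tumors and -0.23 to 0.27 between differently numbered ones. So few tumors cannot show whether a number marks a shared litter, batch or day. The block moved no count of calls. Low read numbers limit Slc25a37, Slc25a40 and Slc25a2, with 14 to 94 reads per tumor.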

Other observations

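Slc25a3 varied less between tumors than nearly all other genes. Its SD over the 6 log2 values was 0.06, and 35 of the 13631 genes tested had a lower one. With equal totals the SD was 0.11 and its rank 259, and with quantile normalization 0.10 and 358, so that it stayed among the steadiest 3% of genes under each scaling tried. Slc25a32, the folate or FAD carrier, ranked 107, 975 and 34 and Slc25a38, the glycine carrier, 325, 582 and 274.

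Of the 7 carriers under the threshold of 1 FPKM and above 0, Slc25a34 and Slc25a48 were highest in DATS tumor 1, where the other 5 were at 0. Slc25a34 was at 1.91 FPKM there (35 reads) and at 0.274 to 1.16 in the other tumors, and Slc25a48 at 0.935 FPKM (12 reads) and at 0 to 0.148. Cidea, a lipid droplet protein of brown fat and lactating mammary gland, was at 7.07 FPKM in that tumor and at 1.25 to 2.98 elsewhere, while Ucp1 was listed at 0 in it. Several adipocyte markers were also highest there, with Lipe at 17.2 FPKM (3.83 to 9.38 elsewhere), Adipoq at 10.3 (0 to 4.34), Plin1 at 3.46 (0 to 0.929) and Cidec at 2.78 (0.0292 to 0.943), but Fabp4 and Cfd were highest in DATS tumor 3. The luminal marker Elf5 was at 74.5 FPKM in DATS tumor 1 and at 0.755 to 25.8 elsewhere. The 9 luminal markers in sum were not high there, at 2731 FPKM against 3138 and 4328 in DATS tumors 2 and 3. The single genes above were picked after their values were seen, and their relation was not tested.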
